A study of Saccharomyces cerevisiae with 41 samples.

Results

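The transcripts described here come from the ribosomal DNA of budding yeast (Saccharomyces cerevisiae): the 35S precursor RNA (row RDN37), its external and internal spacers (ETS1, ETS2, ITS1, ITS2), the mature 18S, 5.8S and 25S RNAs (RDN18, RDN58, RDN25) and copies of the separately transcribed 5S RNA (RDN5-1, RDN5-2). They were chosen by name, as every row that starts with RDN, ETS or ITS, and make up 10 of the 11587 features in each of 3 deposited count tables. Each row carries a copy number (RDN37-1 and so on), which is dropped below except for the 5S rows.

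The study grew cells at 25 °C and held them at 37 °C for 90 min before harvest. All strains are given with the genetic background BY4741. Mutants carried csl4-ph, dis3-1 or rrp6 deletion, which touch the RNA exosome, or enp1-1 or srm1-ts, and were set against 1 control strain. In oligo d(T)-selected RNA there were 3 csl4-ph, 2 enp1-1, 2 srm1-ts and 3 control libraries. In RNA depleted of ribosomal RNA there were 3 csl4-ph libraries and 2 each of enp1-1, srm1-ts, dis3-1, rrp6 deletion and control. In 3′ tag libraries, in which a read starts from a priming site of oligo d(T), csl4-ph, enp1-1 and control cells carried either a Pab1GFP vector or an empty vector, with 3 libraries in each of these 6 groups. The labels do not say that replicates came from separate cultures, so that p-values measure the spread between these libraries, which may be technical.

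As background, RNA polymerase I transcribes the 35S precursor, which runs from ETS1 through 18S, ITS1, 5.8S, ITS2 and 25S to ETS2. The RNase III enzyme Rnt1 cuts in the 3′ spacer ETS2 as transcription ends. Cuts in ETS1 and ITS1, made in a large particle that holds the U3 RNA, release the precursor of 18S, and cuts in ITS1 and ITS2 release 5.8S and 25S. The nuclear exosome, whose core includes Csl4 and whose nucleases are Dis3 and Rrp6, degrades the ETS1 fragment that is cut off and trims ITS2 from the 3′ end of the 5.8S precursor. Enp1 is a factor of small subunit assembly, and Srm1 loads the small GTPase Ran with GTP for nuclear transport. Ribosomal RNAs carry no poly(A) tail when mature, and the nuclear polyadenylation complex tags faulty precursors for the exosome. Pab1 is the cytoplasmic poly(A)-binding protein.

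The sequences of the spacers, 5.8S and 5S are shown as a description of the rows. Whether A runs or other bases bear on the counts was not tested. They were read 5′ to 3′ from the RefSeq genome of build R64, on chromosome XII, and coordinates in the deposited row names were the same. Capitals mark runs of 5 or more A in the spacers and 5.8S, since oligo d(T) libraries and 3′ tags start from oligo d(T). ETS1 (XII:457733-458432, minus strand, 700 bases) is shown from base 401 to its 3′ end at base 700.
ETS1 bases 401 to 700: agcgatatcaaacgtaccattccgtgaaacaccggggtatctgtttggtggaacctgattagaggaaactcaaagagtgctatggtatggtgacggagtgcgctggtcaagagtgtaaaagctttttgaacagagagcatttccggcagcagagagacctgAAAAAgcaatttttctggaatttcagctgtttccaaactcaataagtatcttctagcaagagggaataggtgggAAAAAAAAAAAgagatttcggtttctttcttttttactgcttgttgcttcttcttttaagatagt
ITS1 (XII:455572-455932, minus strand, 361 bases) is shown from base 62 to its 3′ end.
ITS1 bases 62 to 361: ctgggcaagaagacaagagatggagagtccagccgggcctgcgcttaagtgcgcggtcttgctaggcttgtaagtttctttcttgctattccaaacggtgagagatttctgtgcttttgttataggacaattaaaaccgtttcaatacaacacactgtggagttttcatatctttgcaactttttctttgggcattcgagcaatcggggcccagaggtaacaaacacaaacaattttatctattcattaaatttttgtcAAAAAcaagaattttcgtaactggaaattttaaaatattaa
The 5.8S RNA (XII:455414-455571, minus strand, 158 bases), ITS2 (XII:455182-455413, minus strand, 232 bases) and ETS2 (XII:451575-451785, minus strand, 211 bases) are shown whole.
RDN58: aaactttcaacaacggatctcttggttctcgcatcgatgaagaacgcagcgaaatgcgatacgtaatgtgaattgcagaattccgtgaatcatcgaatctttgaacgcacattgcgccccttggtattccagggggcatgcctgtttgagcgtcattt
ITS2: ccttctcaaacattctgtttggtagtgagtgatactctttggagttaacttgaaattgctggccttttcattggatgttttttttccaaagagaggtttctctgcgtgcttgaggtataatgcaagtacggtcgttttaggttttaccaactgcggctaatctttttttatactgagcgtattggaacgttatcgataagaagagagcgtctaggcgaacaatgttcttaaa
ETS2: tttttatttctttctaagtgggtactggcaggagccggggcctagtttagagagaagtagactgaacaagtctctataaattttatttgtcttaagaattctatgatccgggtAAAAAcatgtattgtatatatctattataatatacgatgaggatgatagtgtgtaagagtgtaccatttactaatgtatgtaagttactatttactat
The 5S copies (RDN5-1, XII:459676-459796, 121 bases, and RDN5-2, XII:468813-468931, 119 bases, both on the plus strand) are shown with the bases that differ between them in capitals.
RDN5-1: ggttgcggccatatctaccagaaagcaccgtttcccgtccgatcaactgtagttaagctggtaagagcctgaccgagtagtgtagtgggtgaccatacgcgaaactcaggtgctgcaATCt
RDN5-2: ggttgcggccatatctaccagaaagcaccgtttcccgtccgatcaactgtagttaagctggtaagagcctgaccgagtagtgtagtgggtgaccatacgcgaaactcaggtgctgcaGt
The longest A run had 11 bases in ETS1, 5 in ITS1 and ETS2, and 3 in ITS2 and 5.8S. ETS1 held 2 runs of 5 or more A, ITS1 and ETS2 held 1 each, and ITS2 and 5.8S held 0. GC content was 41.9% in ETS1, 36.01% in ITS1, 38.8% in ITS2, 31.8% in ETS2, 46.2% in 5.8S, 44.8% in 18S (XII:455933-457732, 1800 bases) and 47.9% in 25S (XII:451786-455181, 3396 bases). RDN37 (XII:451575-458432, minus strand, 6858 bases) spans all 7 of the other rows of the 35S unit. The 5S copies aligned over 121 columns, of which 118 were identical, 1 was a mismatch and 2 were gaps. Of each row of the 35S unit the annotation holds 1 other copy, identical in sequence, and of each 5S row 5 other copies.

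Library totals ran between 15589670 and 33251600 estimated counts in oligo d(T) RNA, 12795066 and 32142495 in ribo-depleted RNA and 1458382 and 3027707 in 3′ tags. The 10 rows took 1.36% to 6.37% of a library in oligo d(T) RNA, 0.587% to 7.59% in ribo-depleted RNA and 7.35% to 10.9% in 3′ tags. In the 3′ tags another 50.0% to 68.4% of counts lay on TAR1 (XII:454696-455070), an open reading frame inside 25S on the opposite strand, and 472467 to 837683 counts per library lay outside the ribosomal DNA. Because RDN37 contains the other rows, a read in 18S or a spacer could be counted for RDN37 or for the shorter row, and the values show how the counting software divided it. A library of csl4-ph ribo-depleted RNA, replicate 1, is described in the labels as poly(A) RNA although its title and table say ribo-depleted. Its RDN37 value of 372 CPM lay with the other csl4-ph ribo-depleted libraries (317 and 280 CPM) and not with the csl4-ph oligo d(T) libraries (7580 to 8036 CPM). Genes of mating type and markers differed among strains: MF(ALPHA)1, the alpha-factor gene, averaged 225 CPM in csl4-ph, 0.357 in enp1-1, 5.36 in srm1-ts, 0.583 in dis3-1 and 0.397 in rrp6 deletion, against 680 CPM in control ribo-depleted libraries, and LYS2, a marker gene, averaged 0 CPM in csl4-ph and 395 to 682 CPM in the other mutants, against 0.541 CPM in control. Of 10 mating-type and marker genes, 10 were called in csl4-ph (beside 76.5% of all features called in that comparison), enp1-1 (71.8%), srm1-ts (76.4%) and dis3-1 (68.8%) and 9 in rrp6 deletion (66.1%). The labels give all strains the same background, BY4741, although these genes differed. In CPM of MF(ALPHA)1 and LYS2, csl4-ph lay nearer to control than the other mutants did, although both genes were called in it. Since each mutant was set against 1 control strain, mutation and strain differences cannot be told apart in the results below. The part of the strain differences was not tested. RRP6 averaged 39.04 CPM in rrp6 deletion and 185 CPM in control ribo-depleted libraries (log2 fold change −2.24 ± 0.05 SE, edgeR adjusted p 1.2e-09). In such bulk RNA, a change in the share of cells that hold a transcript and a change in its amount per cell cannot be told apart.

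Ribo-depleted RNA gave the fullest view of the spacers. ETS1 was higher than control in csl4-ph, dis3-1, rrp6 deletion and enp1-1 and lower in srm1-ts, while ITS2 was lower in csl4-ph, srm1-ts, dis3-1 and enp1-1 and higher in rrp6 deletion. Values are CPM, counts per 1e6 counts, after scaling of library sizes. Folds are log2 ratios of mutant over control with their standard errors (SE), and a row was called at an edgeR adjusted p under 0.05 over all features tested. All 5 comparisons share the same 2 control libraries.

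ETS1, the 5′ external spacer, had 15236, 14000 and 14690 CPM in csl4-ph, against 3487 and 3654 CPM in control (2.04 ± 0.05, adjusted p 5.8e-10). In dis3-1 it had 18120 and 18683 CPM (2.37 ± 0.06, adjusted p 9.7e-10), and in rrp6 deletion 7749 and 7404 CPM (1.09 ± 0.05, adjusted p 1.3e-07). The libraries of these 3 exosome mutants all lay above both control libraries. In enp1-1 ETS1 had 5100 and 4715 CPM (0.46 ± 0.05, adjusted p 3.8e-05). In srm1-ts it had 2146 and 2006 CPM (−0.78 ± 0.05, adjusted p 6.5e-07), below both control libraries. No 2 of the 6 groups overlapped, in the order dis3-1, csl4-ph, rrp6 deletion, enp1-1, control and srm1-ts. Without csl4-ph replicate 1, whose labels disagree, the csl4-ph value of ETS1 was 2.01, that of ITS1 −0.87, that of ITS2 −3.34 and that of 5.8S −7.54.

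**Figure D1:**
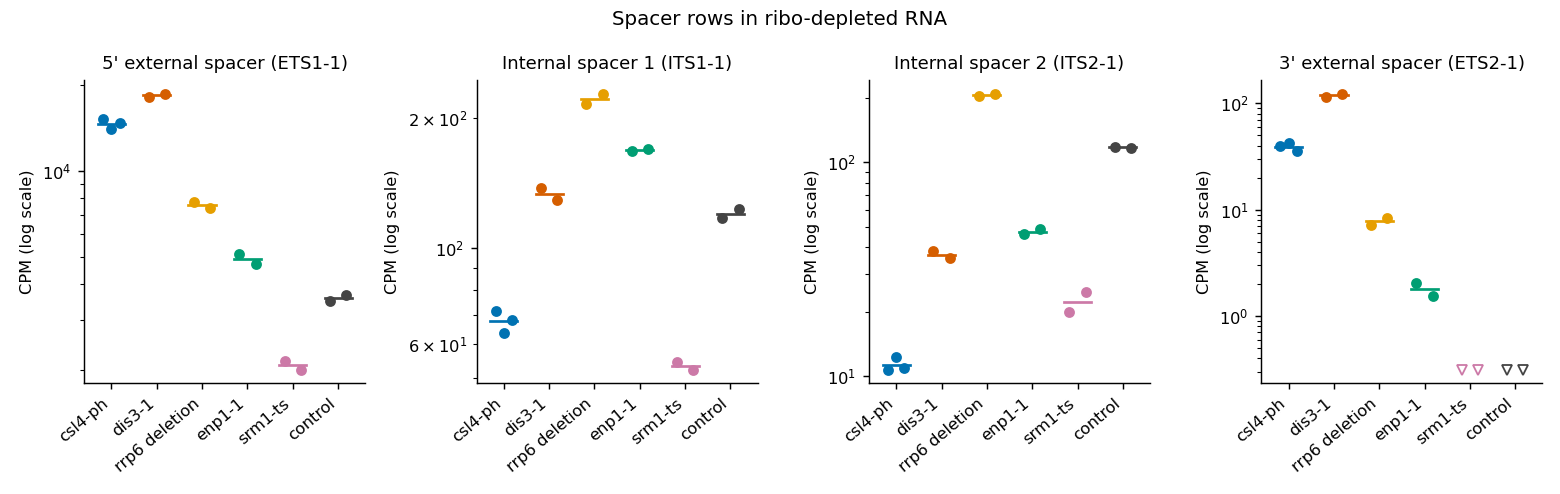
CPM (log axis) of each spacer in ribo-depleted RNA, with 1 point per library, the group mean as a bar, and open downward triangles for libraries with 0 counts. ETS1 is highest in dis3-1 and csl4-ph, ITS2 is highest in rrp6 deletion and lowest in csl4-ph, and ETS2 has no counts in srm1-ts or control.

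ETS2, the 3′ external spacer downstream of 25S, had 0 counts in both control libraries and in both srm1-ts libraries. It had 39.9, 42.1 and 35.6 CPM in csl4-ph, at least 138-fold above the control when that is set at 3 counts per library. In dis3-1 it had 114 and 124 CPM (at least 417-fold), and in rrp6 deletion 7.10 and 8.38 CPM (at least 27.2-fold). The libraries of these exosome mutants did not overlap, with dis3-1 above csl4-ph and csl4-ph above rrp6 deletion. In enp1-1 ETS2 had 2.05 and 1.55 CPM (at least 6.32-fold), the lowest level among the mutants in which it was counted. Both control libraries had counts on RDN37, which contains ETS2. These bounds therefore cover counting error only, and the level of ETS2 and the way its reads were divided cannot be told apart.

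ITS1, the internal spacer between 18S and 5.8S, had 71.3, 63.7 and 68.2 CPM in csl4-ph, against 117 and 123 CPM in control (−0.83 ± 0.05, adjusted p 3.2e-07). It had 54.4 and 52.3 CPM in srm1-ts (−1.17 ± 0.06, adjusted p 4.7e-08). In enp1-1 it had 168 and 170 CPM (0.49 ± 0.05, adjusted p 2.4e-05), and in rrp6 deletion 215 and 228 CPM (0.89 ± 0.05, adjusted p 5.5e-07). ITS1 thus lay below control in csl4-ph and srm1-ts and above it in enp1-1 and rrp6 deletion. In dis3-1 it had 138 and 130 CPM (0.15 ± 0.06, adjusted p 0.0348), a call that was lost without control replicate 1 (0.12, adjusted p 0.179) or without dis3-1 replicate 1 (0.11, adjusted p 0.185).

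ITS2, the internal spacer between 5.8S and 25S, had 10.7, 12.3 and 10.9 CPM in csl4-ph, against 118 and 117 CPM in control (−3.37 ± 0.09, adjusted p 6.7e-10). It had 19.9 and 24.7 CPM in srm1-ts (−2.39 ± 0.09), 38.4 and 35.5 CPM in dis3-1 (−1.67 ± 0.09) and 46.01 and 48.5 CPM in enp1-1 (−1.31 ± 0.09). In these 4 strains every library lay below both control libraries. In rrp6 deletion ITS2 had 204 and 209 CPM, above the control (0.82 ± 0.09, adjusted p 1.9e-05). The 6 groups did not overlap, in the order rrp6 deletion, control, enp1-1, dis3-1, srm1-ts and csl4-ph.

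The balance among the spacers does not depend on the scaling of libraries. The following ratios were chosen after their values were seen and are given as descriptions. The log2 ratio of ITS2 to ETS1 averaged −10.33 ± 0.17 (SD, n = 3) in csl4-ph, −6.70 ± 0.13 in enp1-1, −6.54 ± 0.29 in srm1-ts, −8.96 ± 0.11 in dis3-1 and −5.20 ± 0.07 in rrp6 deletion, against −4.93 ± 0.06 in control (SD, n = 2 each). It was lowest in csl4-ph and dis3-1 and closest to control in rrp6 deletion. The log2 ratio of ITS1 to ETS1 averaged −7.76 ± 0.02 (SD, n = 3) in csl4-ph, −4.86 ± 0.09 in enp1-1, −5.28 ± 0.03 in srm1-ts, −7.10 ± 0.09 in dis3-1 and −5.09 ± 0.11 in rrp6 deletion, against −4.89 ± 0.00 in control (SD, n = 2 each). The enp1-1 libraries overlapped those of control in this ratio, while their ITS1 to ITS2 ratio was higher (1.84 ± 0.04 in enp1-1 and 0.04 ± 0.06 in control, log2, SD, n = 2 each). That ratio was also higher in csl4-ph (2.58 ± 0.19, SD, n = 3), dis3-1 (1.85 ± 0.02) and srm1-ts (1.26 ± 0.26), and was 0.10 ± 0.03 in rrp6 deletion (SD, n = 2 each).

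**Figure D2:**
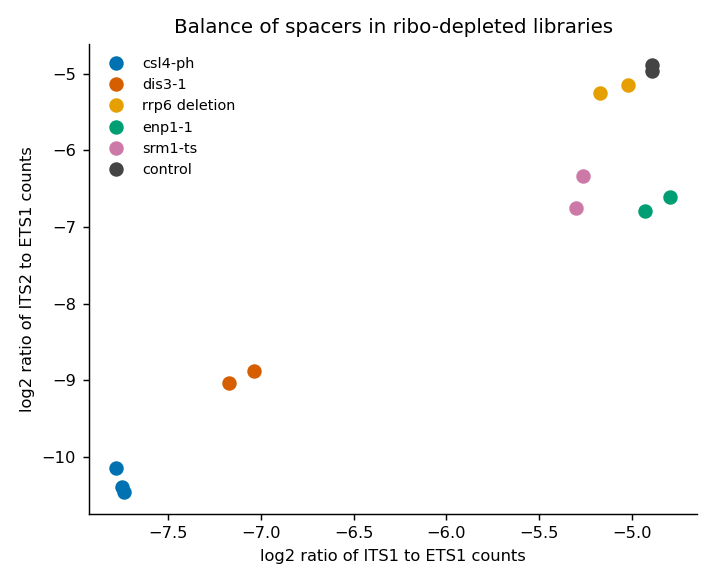
Log2 ratio of ITS2 to ETS1 (vertical axis) against log2 ratio of ITS1 to ETS1 (horizontal axis) in ribo-depleted RNA, with 1 point per library. The csl4-ph and dis3-1 libraries lie low on both axes, rrp6 deletion lies near control, and enp1-1 lies near control on the horizontal axis and below it on the vertical axis.

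On a scale per length of the whole row, control ribo-depleted libraries averaged 5100 CPM per kb for ETS1, 505 for ITS2, 333 for ITS1 and 36.2 for RDN37, with ETS2 at 0. Since RDN37 contains these spacers, differences between rows on this scale also hold how reads were divided. In csl4-ph the levels were 20917 CPM per kb for ETS1, 188 for ITS1, 186 for ETS2 and 48.8 for ITS2. In dis3-1 they were 26288 for ETS1, 564 for ETS2, 370 for ITS1 and 159 for ITS2. In both strains ETS2 stood above ITS2 per kb, which it did not in control, where ETS2 had no counts. In rrp6 deletion they were 10824 CPM per kb for ETS1, 890 for ITS2, 614.5 for ITS1 and 36.7 for ETS2, in the same order as in control.

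The mature RNAs are what the depletion removes, so that their level in the cell and the part that escaped removal cannot be told apart here. The 5.8S RNA, which pairs with 25S in the ribosome, had 7.65, 5.64 and 3.52 CPM in csl4-ph, against 985 and 717 CPM in control (−7.23 ± 0.71, adjusted p 8.6e-06). It had 2.48 and 6.79 CPM in enp1-1 (−7.57 ± 0.82, adjusted p 2.2e-05) and 15.5 and 102 CPM in srm1-ts (−3.86 ± 0.61, adjusted p 0.00028). In these 3 strains 5.8S lay far below control, with a spread in srm1-ts such that its value was −3.06 without replicate 1 and −5.61 without replicate 2. The enp1-1 value was −6.97 without replicate 1 and −8.42 without replicate 2. The other exosome mutants did not pass the test: 5.8S had 490 and 418 CPM in dis3-1 (−0.91, adjusted p 0.165) and 678 and 622 CPM in rrp6 deletion (−0.39, adjusted p 0.557).

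The 25S RNA of the large subunit had 8868 and 50065 CPM in srm1-ts, against 2821 and 1998 CPM in control (3.61 ± 0.91, adjusted p 0.0053). The 18S RNA of the small subunit had 4153 and 24567 CPM in srm1-ts, against 1482 and 1056 CPM in control (3.50 ± 0.88, adjusted p 0.0049). The srm1-ts libraries differed more from each other than the control libraries did, and without srm1-ts replicate 2 the values were 2.05 for 25S and 1.88 for 18S, while without replicate 1 they were 4.38 and 4.27. Neither RNA passed the test in the other mutants. 25S had 4843, 2600 and 1342 CPM in csl4-ph, 1998 and 2597 CPM in enp1-1, 1052 and 312 CPM in dis3-1 and 1155 and 1263 CPM in rrp6 deletion. For dis3-1 the 25S value was −1.82 (adjusted p 0.0867) and became −2.95 (adjusted p 0.0463) without dis3-1 replicate 1. The csl4-ph libraries differed alike in both RNAs: their log2 ratio of 25S to 18S was 0.98 ± 0.05 (SD, n = 3), and that of control was 0.92 ± 0.01 (SD, n = 2). The log2 ratio of 5.8S to 25S, chosen after its values were seen, averaged −8.90 ± 0.37 in csl4-ph (SD, n = 3), −9.10 ± 0.75 in enp1-1, −9.05 ± 0.16 in srm1-ts, −0.34 ± 1.08 in dis3-1 and −0.89 ± 0.18 in rrp6 deletion, against −1.50 ± 0.03 in control (SD, n = 2 each). It was thus lower than in control in the 3 strains in which 5.8S fell.

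RDN37, the whole 35S unit, had 499 and 520 CPM in rrp6 deletion, against 257 and 240 CPM in control (1.04 ± 0.38, adjusted p 0.0349). This call was lost when any 1 of the 4 libraries was left out, with values between 0.99 and 1.09. In dis3-1 RDN37 had 497 and 439 CPM (0.91 ± 0.38, adjusted p 0.0554). The dis3-1 row was called with DESeq2 (1.04, adjusted p 0.011) and with the compared groups alone (1.10, adjusted p 0.00047). In csl4-ph it had 372, 317 and 280 CPM (0.38, adjusted p 0.342), and in enp1-1 159 and 205 CPM (−0.45, adjusted p 0.313). All libraries of dis3-1 and csl4-ph lay above control and both of enp1-1 below it, without passing the test. In srm1-ts it had 146 and 392 CPM, on either side of control, and its value was 0.66 without replicate 1 and −0.60 without replicate 2. The 5S rows had between 0 and 9.39 CPM in ribo-depleted libraries and were called in none of the comparisons.

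In csl4-ph 5 of 10 tested rows were called, beside 76.5% of all features called in that comparison, with 2 higher (background 35.4%) and 3 lower (background 41.1%). In enp1-1 5 of 10 were called (background 71.8%), 3 higher (34.8%) and 2 lower (37.0%), and in srm1-ts 6 of 10 (background 76.4%), 2 higher (39.4%) and 4 lower (37.0%). In dis3-1 4 of 10 were called (background 68.8%), 3 higher (30.0%) and 1 lower (38.8%), and in rrp6 deletion 5 of 10 (background 66.1%), 5 higher (30.5%) and 0 lower (35.6%). The share of rows called in either direction lay below the background in each comparison, and the counts show nothing particular to them. The median log2 fold change of the tested rows was 0.24 in csl4-ph, 0.10 in enp1-1, 0.06 in srm1-ts, −0.38 in dis3-1 and 0.32 in rrp6 deletion, and that of all features lay between −0.07 and 0.04.

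The ratio of spacer to mature counts was taken as the sum of the ETS and ITS rows over the sum of 18S, 5.8S and 25S. Per 100 mature counts, ribo-depleted libraries had 213, 359 and 722 spacer counts in csl4-ph, 886 and 2073 in dis3-1 and 333 and 301 in rrp6 deletion, against 70.4 and 103 in control. Libraries of all 3 exosome mutants lay above control. There were 180 and 138 spacer counts per 100 mature counts in enp1-1 and 17.0 and 2.79 in srm1-ts, above and below control. As differences of mean log2 ratios these were 2.16 for csl4-ph, 3.99 for dis3-1, 1.89 for rrp6 deletion, 0.89 for enp1-1 and −3.63 for srm1-ts. The smallest p that an exact 2-sided permutation test allows is 0.1 for csl4-ph and 0.333 for the others, and each value reached it. ETS1 made up most spacer counts here, and with the internal spacers alone the csl4-ph difference was −1.38. The depletion removes mature RNAs, so that their level and the part that escaped removal cannot be told apart in these ratios. In the srm1-ts libraries mature rows took 1.35% and 7.34% of counts, and spacers 0.231% and 0.205%.

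**Figure D3:**
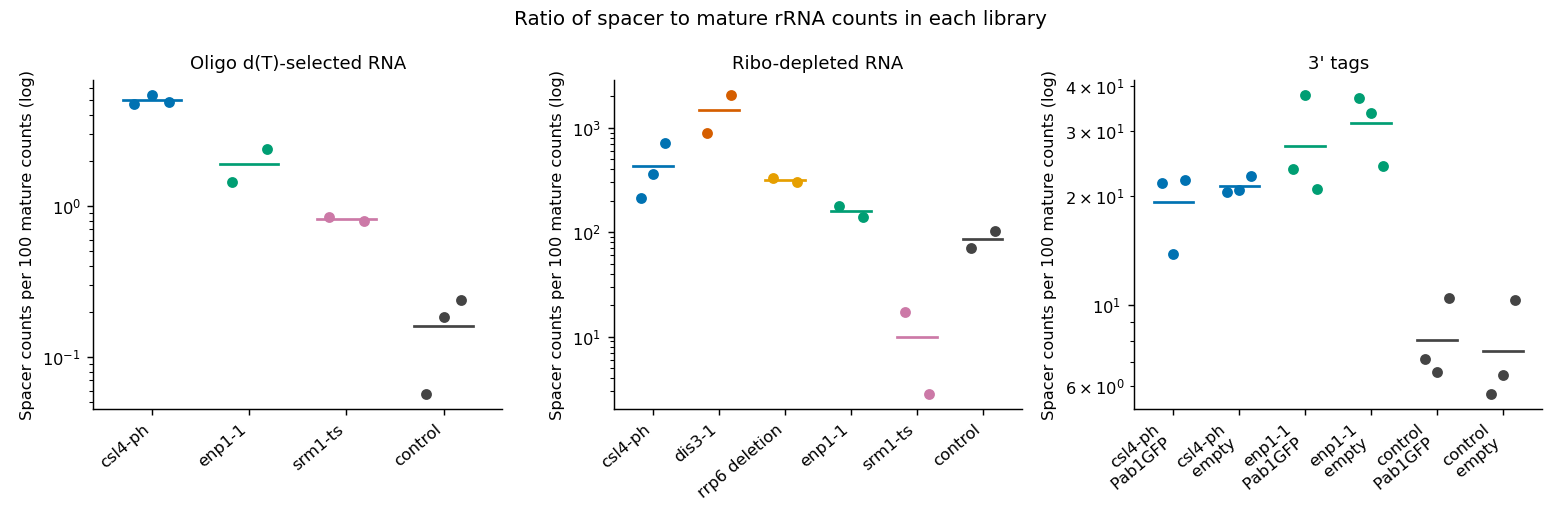
Spacer counts per 100 mature counts (log axis) in the 3 kinds of library, with 1 point per library and the group mean as a bar. In ribo-depleted RNA dis3-1 lies highest, csl4-ph overlaps rrp6 deletion and srm1-ts lies below control, and in oligo d(T) RNA and 3′ tags all mutant libraries lie above all control libraries.

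In oligo d(T)-selected RNA, which is enriched for RNA with A tails, ETS1 had counts in the mutant libraries and none in control, ITS1 had counts in enp1-1 and srm1-ts and none in csl4-ph or control, and ITS2 had counts in control and none in the mutants. ETS1 had 1899, 2025 and 2036 CPM in csl4-ph, and 0 counts in each of 3 control libraries, so that csl4-ph was at least 8134-fold higher. In enp1-1 ETS1 had 25.7 and 29.8 CPM (at least 114-fold), and in srm1-ts 106 and 95.3 CPM (at least 411-fold). The mutant levels thus ranked csl4-ph, srm1-ts, enp1-1, with no overlap. ITS1 had 257 and 245 CPM in enp1-1 (at least 1029-fold) and 21.9 and 15.3 CPM in srm1-ts (at least 76.1-fold), against 0 counts in control, and it had 0 counts in csl4-ph too. ITS2 had 0 counts in all csl4-ph, enp1-1 and srm1-ts libraries, against 26.7, 40.4 and 41.5 CPM in control (at least 253-, 391- and 353-fold lower). ETS2 had 0 counts in every oligo d(T) library.

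RDN37 carried far more of the counts in this selection than in ribo-depleted RNA. It had 5190 and 5049 CPM in enp1-1, against 9379, 9293 and 9607 CPM in control (−0.88 ± 0.04, adjusted p 9.3e-08). It had 1107 and 1153 CPM in srm1-ts (−3.06 ± 0.04, adjusted p 1.4e-10), the lowest of the 4 groups. In csl4-ph it had 8036, 7580 and 7941 CPM (−0.26 ± 0.03, adjusted p 9.5e-05), a direction that turned to 0.08 (adjusted p 0.0555) when libraries were scaled on open reading frames alone. Since 0 counts of a spacer stand beside 9293 to 9607 CPM on the row that contains it, a spacer's level and the way its reads were divided cannot be told apart here.

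Of the mature RNAs, 5.8S had 11.8, 21.4 and 16.3 CPM in csl4-ph, against 324, 259 and 303 CPM in control (−4.17 ± 0.64, adjusted p 0.00035). It had 104 and 14.4 CPM in enp1-1 (−2.30 ± 0.63, adjusted p 0.0099; −4.36 without replicate 1 and −1.50 without replicate 2) and 84.9 and 79.9 CPM in srm1-ts (−1.84 ± 0.62, adjusted p 0.024). All mutant libraries lay below all control libraries. The srm1-ts call was lost when any of 4 of the 5 libraries was left out, with values between −1.89 and −1.68. 25S had 12614 and 6847 CPM in enp1-1 (−1.18 ± 0.39, adjusted p 0.0239) and 11326 and 10485 CPM in srm1-ts (−1.01 ± 0.39, adjusted p 0.0419), against 34514, 17432 and 14124 CPM in control. Control replicate 1 held about as much 25S as the other control libraries together, and without it both calls were lost (−0.61 for enp1-1 and −0.44 for srm1-ts). Both were also lost with scaling on open reading frames alone (−0.89, adjusted p 0.0666, in enp1-1 and −0.87, adjusted p 0.07, in srm1-ts) and with the compared groups fitted alone (−1.11, adjusted p 0.0842, and −1.01, adjusted p 0.0645, in the same order). The enp1-1 call was also lost without enp1-1 replicate 2 (−0.80), and the srm1-ts call without control replicate 2 (−1.08) or either srm1-ts library (−1.07 and −0.95). In csl4-ph 25S had 28827, 26374 and 29685 CPM and did not pass the test (0.36, adjusted p 0.351), but did so without control replicate 1 (0.94, adjusted p 0.0087).

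18S had 11290, 10732 and 12120 CPM in csl4-ph, 6932 and 4703 CPM in enp1-1 and 3606 and 3303 CPM in srm1-ts, against 12420, 4145 and 2935 CPM in control. It was not called in any of the 3 comparisons. Without control replicate 1 it was called in csl4-ph (1.78, adjusted p 0.00013) and enp1-1 (0.80, adjusted p 0.01). The log2 ratio of 25S to 18S was 1.31 ± 0.03 (SD, n = 3) in csl4-ph and 0.70 ± 0.23 (SD, n = 2) in enp1-1, against 1.94 ± 0.41 (SD, n = 3) in control (exact permutation p 0.1 each, the smallest possible).

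The 5S RNA, made by RNA polymerase III, moved differently in its copies. RDN5-2 had 91.0, 123 and 106 CPM in csl4-ph, against 14.2, 12.1 and 8.98 CPM in control (3.17 ± 0.17, adjusted p 4.3e-07). It had 256 and 243 CPM in enp1-1 (4.39 ± 0.18, adjusted p 6.6e-08) and 17.9 and 14.7 CPM in srm1-ts (0.45, adjusted p 0.0752), where DESeq2 (0.50, adjusted p 0.0065) and scaling on open reading frames (0.59, adjusted p 0.0268) called it. RDN5-2 libraries of csl4-ph and enp1-1 thus stood well apart from control. RDN5-1 had 43.3, 36.3 and 50.9 CPM in csl4-ph, against 26.5, 29.1 and 31.6 CPM in control (0.58 ± 0.19, adjusted p 0.0219; 0.46 without csl4-ph replicate 3, adjusted p 0.0785). It had 33.7 and 28.6 CPM in enp1-1 (0.10, adjusted p 0.681) and 2.84 and 4.88 CPM in srm1-ts (−2.91 ± 0.25, adjusted p 7.7e-06). The copies differ at few bases, as shown above, so that the split of reads between them is uncertain. Summed into 1 row, 5S was at 1.88 in csl4-ph, 2.78 in enp1-1 and −1.02 in srm1-ts, all called.

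**Figure D4:**
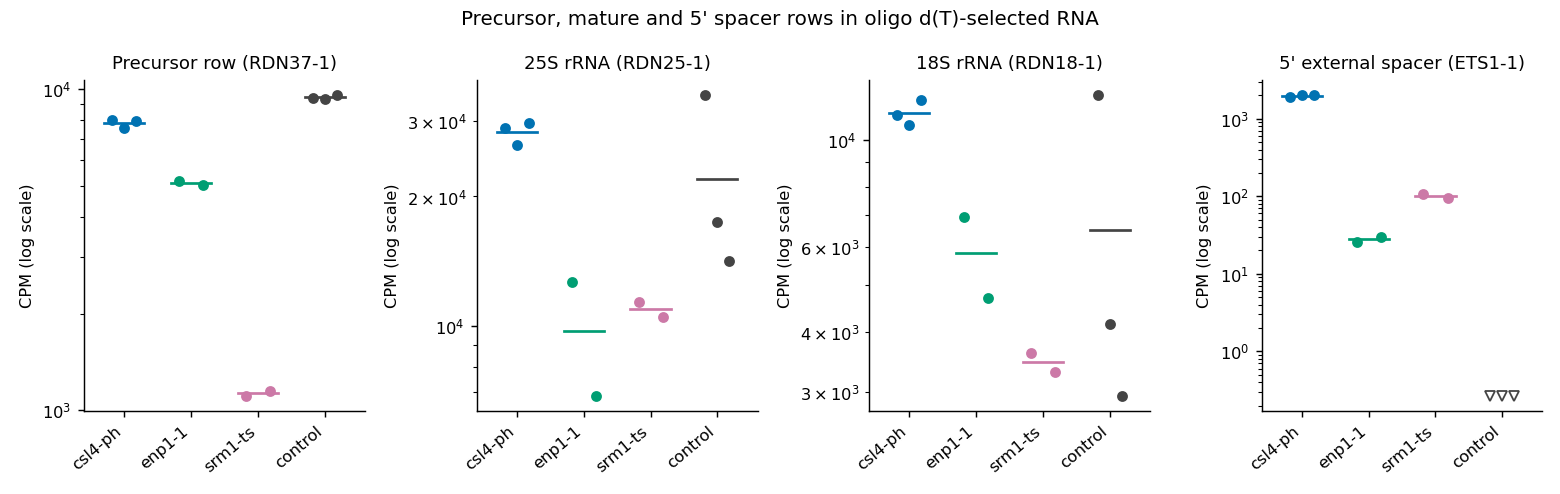
CPM (log axis) of RDN37, RDN25, RDN18 and ETS1 in oligo d(T) RNA, with 1 point per library, the group mean as a bar, and open downward triangles for libraries with 0 counts. ETS1 has counts in the mutants alone, and RDN37 is lowest in srm1-ts.

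Of the 9 rows tested in oligo d(T) RNA, 6 were called in csl4-ph (background 77.8%), 3 higher (38.2%) and 3 lower (39.6%). In enp1-1 7 were called (background 76.4%), 3 higher (37.8%) and 4 lower (38.6%), and in srm1-ts 7 (background 77.0%), 2 higher (39.3%) and 5 lower (37.7%). These shares lay near the background. The median log2 fold change of these rows was 0.36 in csl4-ph, −0.16 in enp1-1 and −1.01 in srm1-ts, against medians between 0.00 and 0.01 over all features. Per 100 mature counts there were 4.73, 5.46 and 4.87 spacer counts in csl4-ph, 1.44 and 2.38 in enp1-1 and 0.849 and 0.797 in srm1-ts, against 0.0566, 0.185 and 0.239 in control. The mutant libraries lay above all control libraries, by 5.20, 3.77 and 2.60 on the log2 scale (exact permutation p 0.1 each, the smallest possible). With RDN37 counted among the spacers, an alternative added after seeing the data, these differences were −0.54, −0.01 and −2.06.

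In 3′ tags, ETS1 rose in csl4-ph, ITS1 rose in csl4-ph and enp1-1, and ITS2 fell in both strains under both vectors. With the empty vector, ETS1 had 7720, 9464 and 9088 CPM in csl4-ph, against 4696, 4582 and 4636 CPM in control (0.92 ± 0.15, adjusted p 8.9e-05). With the Pab1GFP vector it had 6421, 7211 and 6798 CPM in csl4-ph, against 3161, 3690 and 3438 CPM in control (0.99 ± 0.15, adjusted p 4.2e-05). The csl4-ph libraries lay above control under both vectors. In enp1-1 ETS1 had 5718, 4376 and 4508 CPM with the empty vector, overlapping control (0.07, adjusted p 0.731), and 5162, 7497 and 5322 CPM with Pab1GFP, above it (0.81 ± 0.15, adjusted p 0.0016). The difference between the vectors did not pass a test of the interaction (0.74 ± 0.21, edgeR adjusted p 0.11).

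ITS1 had 14231, 11342 and 9816 CPM in enp1-1 with the empty vector, against 1728, 1761 and 1703 CPM in control (2.77 ± 0.17, adjusted p 1e-08). With Pab1GFP it had 6646, 10663 and 8954 CPM in enp1-1, against 1413, 1361 and 1451 CPM in control (2.64 ± 0.17, adjusted p 4.1e-08). In csl4-ph ITS1 had 3021, 3027 and 2698 CPM with the empty vector (0.75 ± 0.16, adjusted p 0.0013) and 2290, 2989 and 2447 CPM with Pab1GFP (0.87 ± 0.16, adjusted p 0.00038), and every one of these libraries lay between the control and the enp1-1 libraries of its vector. The csl4-ph call with the empty vector was lost without control replicate 1 (0.47, adjusted p 0.0669) or replicate 2 (0.48, adjusted p 0.0589). ITS2 fell in both strains: it had 754, 679 and 630 CPM in csl4-ph and 884, 756 and 401 CPM in enp1-1 with the empty vector, against 3075, 2734 and 3176 CPM in control (−2.12 ± 0.20 and −2.14 ± 0.20). With Pab1GFP ITS2 had 430, 477 and 529 CPM in csl4-ph and 883, 961 and 855 CPM in enp1-1, against 2339, 2287 and 2373 CPM in control (−2.28 ± 0.21 and −1.37 ± 0.20). No mutant library overlapped a control library in ITS1 or ITS2. As a description, the log2 ratio of ITS1 to ETS1 was 1.27 ± 0.13 in enp1-1 and −1.58 ± 0.21 in csl4-ph, against −1.42 ± 0.04 in control, with the empty vector (SD, n = 3 each).

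RDN37 fell in 3′ tags in both strains. It had 3715, 3214 and 3016 CPM in csl4-ph and 3031, 2789 and 1873 CPM in enp1-1 with the empty vector, against 8180, 8004 and 8372 CPM in control (−1.30 ± 0.17 and −1.67 ± 0.17). With Pab1GFP the values were −1.48 ± 0.17 in csl4-ph and −1.17 ± 0.17 in enp1-1, and all 4 were called. 25S was lower in csl4-ph (−1.30 ± 0.27 with the empty vector and −0.81 ± 0.26 with Pab1GFP) and in enp1-1 with the empty vector (−1.43 ± 0.27), and was not called in enp1-1 with Pab1GFP (−0.67, adjusted p 0.109). 18S was at −0.91 ± 0.25 and −0.65 ± 0.25 in csl4-ph and at −0.85 ± 0.25 and −0.61 (adjusted p 0.12, not called) in enp1-1, in the same order of vectors. The 18S call of csl4-ph with Pab1GFP was lost when any of 4 of its 6 libraries was left out, with median-ratio scaling (adjusted p 0.0869), scaling on open reading frames (adjusted p 0.0625), DESeq2 (adjusted p 0.0787) and the compared groups alone (adjusted p 0.12). The 25S call of the same comparison was lost with the compared groups alone (−0.76, adjusted p 0.0761). The 18S call of enp1-1 with the empty vector was lost without enp1-1 replicate 2 (−0.76, adjusted p 0.0502). TAR1, opposite 25S, was called lower with the empty vector, at −0.90 ± 0.28 in csl4-ph and −1.004 ± 0.28 in enp1-1.

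RDN5-2 was counted in the tags of mutants and nearly absent from control. With the empty vector it had 46.7, 35.4 and 36.7 CPM in csl4-ph (at least 23.6-fold higher) and 28.5, 72.7 and 117 CPM in enp1-1 (at least 43.4-fold higher), against 0 counts in control. With Pab1GFP it had 30.1, 47.1 and 52.7 CPM in csl4-ph and 35.6, 26.7 and 17.6 CPM in enp1-1, against 0.583, 0 and 0.501 CPM in control. All mutant libraries lay above all control libraries. ETS2 had between 9.78 and 15.3 CPM in all 6 csl4-ph libraries, and at least 1 library at 0 counts in each enp1-1 and control group, and it was not called.

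With the empty vector 7 of 9 tested rows were called in csl4-ph (background 47.5%), 3 higher (32.2%) and 4 lower (15.4%), and 6 of 9 in enp1-1 (background 38.9%), 2 higher (25.0%) and 4 lower (13.8%). With Pab1GFP 7 of 9 were called in csl4-ph (background 51.3%), 3 higher (32.8%) and 4 lower (18.5%), and 5 of 9 in enp1-1 (background 13.3%), 3 higher (8.73%) and 2 lower (4.62%). The medians of the rows were −0.72, −0.78, −0.34 and −0.61 in that order, against 0.22, 0.20, 0.20 and 0.08 over all features. The share called lay above the background in all 4. Between vectors, Pab1GFP against empty, 0 rows passed edgeR's test in control (background 0.393%, with 0.220% higher and 0.173% lower; 2 at an unadjusted p under 0.05), 0 in csl4-ph (background 0.408%, with 0.236% higher and 0.173% lower; 3 unadjusted) and 1 in enp1-1 (background 6.66%; 2 unadjusted), and DESeq2 called the same numbers of 0, 0 and 1. That row, with 4.95% of features called lower and 1.71% higher in the comparison, was RDN5-2 (−1.46 ± 0.41, adjusted p 0.0484), and the call was lost when any of 5 of its 6 libraries was left out. PAB1 averaged 19.2 CPM with Pab1GFP and 2.00 CPM with the empty vector in control cells (3.21 ± 0.38, adjusted p 0.00057).

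Spacer counts per 100 mature counts in 3′ tags were 20.5, 20.8 and 22.6 in csl4-ph and 37.1, 33.7 and 24.2 in enp1-1 with the empty vector, against 5.70, 6.44 and 10.4 in control. With Pab1GFP they were 21.6, 13.8 and 22.0 in csl4-ph and 23.7, 37.8 and 20.8 in enp1-1, against 7.11, 6.57 and 10.5 in control. All mutant libraries lay above all control libraries of the same vector. With libraries permuted within a vector, the mean log2 differences of 1.40 for csl4-ph and 1.93 for enp1-1 gave exact p 0.005, the smallest possible (adjusted p 0.012 over 12 tests).

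The same stratified test joined oligo d(T) and ribo-depleted libraries, permuting within each table. The ratio of spacer to mature counts was higher in csl4-ph (mean log2 difference 3.68, exact p 0.005, adjusted p 0.012) and in enp1-1 (2.33, exact p 0.0167, adjusted p 0.0286). The enp1-1 call was lost whichever of its 9 libraries was left out, with values between 2.01 and 2.53, where fewer libraries also raise the smallest p the test allows. In srm1-ts the ratio was above control in oligo d(T) RNA and below it in ribo-depleted RNA (mean −0.52, exact p 0.717). With RDN37 among the spacers, added after seeing the data, the csl4-ph value was 0.78 (adjusted p 0.345) and that of enp1-1 0.42 (adjusted p 0.4). In oligo d(T) RNA all spacer counts lay on ETS1 in csl4-ph and on ITS2 in control, so that the ratio also holds how reads were divided. In ribo-depleted RNA it also holds how much mature RNA escaped removal. Between vectors the ratio differed by −0.10 on average (exact p 0.577).

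The share of library counts on all 10 rows was 6.36%, 5.82% and 6.37% in csl4-ph oligo d(T) RNA, against 4.12%, 2.30% and 1.97% in control. In ribo-depleted RNA it was 2.60%, 2.13% and 1.97% in csl4-ph, 0.909% and 0.961% in enp1-1, 1.60% and 7.59% in srm1-ts, 2.29% and 2.22% in dis3-1 and 1.01% and 1.01% in rrp6 deletion, against 0.683% and 0.587% in control. Every mutant ribo-depleted library lay above both control libraries, where these shares also hold the mature RNA that escaped removal. With ETS1 left out, a choice made after seeing the data, the log2 difference from control went from 1.83 to −0.63 in dis3-1. In rrp6 deletion it went from 0.68 to −0.20, and in the other mutants its sign stayed the same. Over both tables the csl4-ph share was higher by 1.51 on the log2 scale (exact p 0.005, adjusted p 0.012), and without ETS1, left out after seeing the data, by 0.80 (adjusted p 0.09). In 3′ tags the share was lower in csl4-ph (−0.30, exact p 0.005, adjusted p 0.012) and did not pass in enp1-1 (−0.15, exact p 0.055, adjusted p 0.0825). Over the 3 strains it was lower with Pab1GFP than with the empty vector (−0.12, exact p 0.014, adjusted p 0.028). That call was lost without enp1-1 Pab1GFP replicate 1 (−0.10) or enp1-1 empty vector replicate 3 (−0.087), and with totals that leave out overlapping features (−0.073).

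Of the other features, 6 overlap at least 1 of the 10 rows. The feature 12F-188 (XII:460075-460602), between the 5S copies, was picked after its values were seen. In ribo-depleted RNA it had 288, 297 and 291 CPM in csl4-ph, 747 and 797 CPM in dis3-1 and 139 and 163 CPM in rrp6 deletion, against 7.86 and 8.46 CPM in control (5.16 ± 0.10, 6.57 ± 0.10 and 4.21 ± 0.11). In enp1-1 it had 7.88 and 8.41 CPM, overlapping control, and in srm1-ts 4.03 and 4.60 CPM, below it. The order dis3-1, csl4-ph, rrp6 deletion is that of ETS1 and ETS2 too. TAR1 had 0 counts in csl4-ph oligo d(T) libraries, 5345 and 4719 CPM in enp1-1 and 4276 and 4237 CPM in srm1-ts, against 1738, 947 and 909 CPM in control.

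The features outside the ribosomal DNA whose log2 CPM ran most like that of the summed spacers were named by Pearson correlation across libraries, a description of libraries that share groups and controls. In ribo-depleted RNA (13 libraries, 7304 features) they were NUT0459 (r = 0.980), NUT0354 (0.966), RPB11 (0.966), CUT IV:1004461-1005325 (0.965) and 7F-439 (0.960). In oligo d(T) RNA (10 libraries, 7188 features) GLT1 led (0.997), followed by YNR065C, NUT0755, NUT1363 and NUT0287 (0.992 or more). In 3′ tags (18 libraries, 3636 features) snR52 led (0.877), followed by ECM11, NUT0517, DUS3 and SYH1 (0.855 or more).

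Lists of genes whose products make and process the precursor were tested in the same fits; scaling on open reading frames alone moved the median of all features by 0.20 to 0.43 in ribo-depleted RNA and by 0.14 to 0.33 in oligo d(T) RNA. It moved the features called higher in csl4-ph ribo-depleted RNA to 5155 against 2958 lower (3743 and 4338 with the scaling used throughout), and in dis3-1 to 4664 against 2499 (3169 and 4095). The share of all features called higher and lower in ribo-depleted RNA, against which each count below is to be read, was 35.4% and 41.1% in csl4-ph, 34.8% and 37.0% in enp1-1, 39.4% and 37.0% in srm1-ts, 30.0% and 38.8% in dis3-1 and 30.5% and 35.6% in rrp6 deletion. In csl4-ph ribo-depleted libraries 2 of 43 small subunit processing factors were higher and 36 lower, with a median of −0.86 beside −0.03 over all features. KRR1 averaged 62.6 CPM in csl4-ph and 283 CPM in control (−2.17 ± 0.03), and PWP2, of the U3 particle, was at −1.12 ± 0.02. Of 36 large subunit factors 1 was higher and 32 lower (median −0.84), among them NOP7, with 190 CPM in csl4-ph and 400 CPM in control (−1.07 ± 0.02). In srm1-ts 13 of 43 small subunit factors were higher and 29 lower (median −0.85), and 4 of 36 large subunit factors were higher and 28 lower (median −0.87). In enp1-1 the counts were 11 higher and 25 lower of the small (median −0.34) and 7 and 27 of the large subunit factors (median −0.48). In rrp6 deletion they ran the other way, with 32 higher and 3 lower of the small (median 0.38) and 29 and 2 of the large subunit factors (median 0.37), such as UTP18 (1.20 ± 0.03) and NOG2 (1.29 ± 0.03). In dis3-1 the direction depended on scaling: 5 higher and 25 lower of the small subunit factors (median −0.25), but 23 and 14 (median 0.15) with scaling on open reading frames. Scaled that way, the csl4-ph medians were −0.38 and −0.37, the enp1-1 medians −0.04 and −0.18, those of srm1-ts −0.55 and −0.58, and those of rrp6 deletion 0.66 (37 higher, 2 lower) and 0.65 (34 higher, 2 lower).

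Genes of RNA polymerase I and its factors were 4 higher and 9 lower of 15 in csl4-ph ribo-depleted RNA (background 35.4% and 41.1%; median −0.72), and 10 higher and 2 lower in rrp6 deletion (background 30.5% and 35.6%; median 0.46). With scaling on open reading frames they were 5 higher and 7 lower in csl4-ph (median −0.24) and 11 higher and 1 lower in rrp6 deletion (median 0.74). RPA135, the second largest subunit, averaged 677 CPM in csl4-ph and 1170 CPM in control (−0.79 ± 0.02) and was at −2.09 ± 0.02 in srm1-ts. RRN3, the initiation factor of this polymerase, was higher in enp1-1 (1.89 ± 0.05), srm1-ts (2.89 ± 0.05), dis3-1 (1.63 ± 0.05) and rrp6 deletion (1.93 ± 0.05). Of 6 genes of ribosomal DNA chromatin 1 was higher and 5 lower in csl4-ph (median −0.47), but 3 higher and 3 lower with scaling on open reading frames (median 0.0045). There HMO1, a high-mobility-group protein of the ribosomal genes, was at −0.98 ± 0.04, and NET1, a nucleolar silencing protein, at −0.76 ± 0.02.

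Of 19 genes of the exosome and its cofactors 4 were higher and 12 lower in csl4-ph (background 35.4% and 41.1%; median −0.73), and 11 were higher and 2 lower in rrp6 deletion (background 30.5% and 35.6%; median 0.19). With scaling on open reading frames 8 were higher and 9 lower in csl4-ph (median −0.25) and 15 higher and 2 lower in rrp6 deletion (median 0.47). RRP43, a core subunit, averaged 54.6 CPM in csl4-ph and 194 CPM in control (−1.83 ± 0.04). TRF5, a poly(A) polymerase that marks RNA for the exosome, averaged 46.5 CPM in csl4-ph and 2.30 CPM in control (4.33 ± 0.14), and was higher in each of the other mutants as well (3.39 to 4.48). Of 9 other nucleases that act on the precursor 0 were higher and 8 lower in csl4-ph (median −0.84; 2 and 6, median −0.36, with that scaling), including the 5′ exonucleases XRN1 (−0.65 ± 0.03) and RAT1 (−0.96 ± 0.05). RNT1, which cuts ETS2, had 0 counts in srm1-ts ribo-depleted libraries, against 26.4 CPM on average in control. Of 7 RNAs that act in cleavage 2 were higher and 5 lower in csl4-ph (median −0.70; 2 and 3, median −0.22, with that scaling), with snR190 at −1.87 ± 0.15 and snR30 at −0.73 ± 0.09, while 5 were higher and 1 lower in rrp6 deletion (median 0.36; 5 and 0, median 0.64, with that scaling). The same lists in oligo d(T) RNA had medians closer to 0: small subunit factors were at −0.19 in csl4-ph (16 higher, 23 lower, background 38.2% and 39.6%), 0.02 in enp1-1 (19 and 14, background 37.8% and 38.6%) and −0.12 in srm1-ts (17 and 19, background 39.3% and 37.7%), and turned to 0.16 in csl4-ph and 0.02 in srm1-ts with scaling on open reading frames.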

How the data were processed

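Cells of 6 yeast strains were sequenced in 41 libraries: 10 of oligo d(T)-selected RNA and 13 of ribo-depleted RNA (stranded, paired-end) and 18 of 3′ tags. Per the submitters' processing notes, the authors trimmed reads with Trimmomatic (0.39, and 0.38 for tags) and quantified them with Salmon 0.12.0 on build sacCer3. The values the authors deposited are Salmon's estimated counts per feature (each an expected count that need not be whole), not normalized. The settings by which reads were divided among overlapping rows are not given in the sources used here.

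Counts were rounded to whole numbers. For each table, edgeR 4.0.16 (R 4.3.3) fitted all groups together with TMM scaling, after filterByExpr, and its quasi-likelihood test gave p-values adjusted by Benjamini-Hochberg over all features tested (10464, 10564 and 6369). ETS2 in oligo d(T) RNA and RDN5-1 in 3′ tags did not pass the filter, and the other members did. CPM use TMM-scaled totals. Folds against groups at 0 are bounds against 3 counts per library, 0.0847 to 0.264 CPM in oligo d(T), 0.0866 to 0.313 CPM in ribo-depleted and 1.00 to 1.94 CPM in 3′ tag libraries. They cover counting error only.

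Spacer to mature ratios (pseudocount 1) and shares were compared by exact 2-sided permutation tests, alone and within strata (12 tests in the family). Alternatives were median-ratio scaling, scaling on open reading frames, totals without ribosomal DNA, DESeq2 1.42.0, no filter, the compared groups alone, a replicate block, libraries left out and other definitions of the ratio. Named features were the 10 members, list genes with the smallest adjusted p in a comparison, which need not have the largest change, the 5 features most like the summed spacers (mean CPM of at least 10), and features that overlap a member. No 2 libraries were identical. The members and the lists were chosen with earlier results of these data known.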

Additional observations from a re-analysis of the deposited data

Results flagged for a closer look

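For 4 results the direction differed between oligo d(T) and ribo-depleted RNA, with every mutant library on 1 side of all control libraries in each kind of RNA. The difference between the kinds of RNA was not tested, since each was fitted in its own table. This rule was applied to the ribosomal DNA rows alone, in csl4-ph, enp1-1 and srm1-ts. The share of all features that meet it was not counted, so that the 4 results cannot be read as particular to these rows. Values are log2 fold changes of mutant over control. RDN37 in csl4-ph was at −0.26 in oligo d(T) RNA and at 0.38 in ribo-depleted RNA, where it was not called, and the oligo d(T) value was 0.08 with scaling on open reading frames. 25S in srm1-ts was at −1.01 in oligo d(T) RNA and at 3.61 in ribo-depleted RNA. The oligo d(T) call was lost with scaling on open reading frames (−0.87) and without control replicate 1 (−0.44). The ribo-depleted value was 2.05 without srm1-ts replicate 2 and 4.38 without replicate 1, for an RNA that the depletion removes. ITS1 in srm1-ts was at least 76.1-fold higher than control in oligo d(T) RNA and at −1.17 in ribo-depleted RNA. ETS1 in srm1-ts was at least 411-fold higher in oligo d(T) RNA and at −0.78 in ribo-depleted RNA. In both cases of srm1-ts spacers the control had 0 counts in oligo d(T) RNA beside 9293 to 9607 CPM on RDN37.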

How the results depend on the processing

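Of 1339 values of single rows under alternatives, 1252 kept direction and call, 44 lost and 20 gained a call, and 23 changed sign. Values are log2 fold changes or log2 differences, mutant over control or Pab1GFP over empty vector. The cause was not tested except where the alternative's construction shows it. RDN25 in enp1-1 ribo-depleted RNA, not called, was at 0.041 with median-ratio scaling, 0.042 with DESeq2, 0.24 with scaling on open reading frames, 0.090 with ribosomal DNA left out of totals and 0.060 with the compared groups alone. With scaling on open reading frames RDN37 in csl4-ph oligo d(T) RNA was at 0.079 and RDN18 in enp1-1 at 0.13, and with no filter ETS1 in enp1-1 tags (empty vector) at −0.023. RDN37 in dis3-1 ribo-depleted RNA was called with scaling on open reading frames (1.32), median-ratio scaling (1.04), ribosomal DNA left out (1.09), DESeq2 (1.04) and the compared groups alone (1.10). With the compared groups alone RDN37 in csl4-ph (0.58, adjusted p 0.0083), 5.8S in dis3-1 (−0.73), 18S and 25S in rrp6 deletion (−0.83 and −0.90) and RDN5-2 in srm1-ts (3.87) were called in ribo-depleted RNA too. Between vectors, 1 row was called in control with the compared groups alone, and 0 in enp1-1 with ribosomal DNA left out, no filter, the replicate block or the compared groups alone.

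With internal spacers alone the spacer to mature ratio was at −10.15 in csl4-ph and −0.10 in srm1-ts oligo d(T) RNA, −1.38 in csl4-ph ribo-depleted RNA, and −5.76 (csl4-ph) and 1.97 (enp1-1, adjusted p 0.0571) over both tables. Since csl4-ph had no internal-spacer counts in oligo d(T) RNA, its −10.15 and −5.76 are set by the pseudocount and are no measured differences. With external spacers alone it was at 3.77 for srm1-ts over both tables (control had no external-spacer counts in oligo d(T) RNA, so that the pseudocount sets this value too), 0.21 between vectors in enp1-1 and 0.020 between vectors in 3 strains. With 25S alone as mature it was at 2.30 in enp1-1 (adjusted p 0.0571). With RDN37 among the spacers, chosen after seeing the data, it was at −0.54 in csl4-ph, −0.014 in enp1-1 and −2.06 in srm1-ts oligo d(T) RNA, and at 0.78 (adjusted p 0.345) and 0.42 (adjusted p 0.4) in csl4-ph and enp1-1 over both tables. The share without ETS1, also added, was at −0.63 in dis3-1, −0.20 in rrp6 deletion, 0.80 in csl4-ph over both tables and −0.21 in enp1-1 tags (adjusted p 0.0429). With totals that leave out overlapping features the share was at −0.38 in enp1-1 tags (adjusted p 0.0286), 0.069 between vectors in enp1-1 and −0.073 between vectors in 3 strains.

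Leaving out 1 library at a time moved ETS1 in enp1-1 tags (empty vector) between −0.12 and 0.13, RDN18 between −0.32 and 0.54 in csl4-ph ribo-depleted, −0.47 and 0.80 in enp1-1 oligo d(T) and −1.18 and 0.055 in srm1-ts oligo d(T) RNA, RDN25 between −0.29 and 0.63 in csl4-ph and −0.30 and 0.20 in enp1-1 ribo-depleted RNA, RDN37 in srm1-ts ribo-depleted RNA between −0.60 and 0.66, and RDN5-1 in enp1-1 between −0.022 and 0.25 in oligo d(T) and −0.49 and 6.69 in ribo-depleted RNA. The rows called between vectors in enp1-1 ran between 0 and 1. The share ran between −0.26 and 0.33 in enp1-1 oligo d(T) RNA, −0.20 and −0.12 in enp1-1 tags, −0.12 and 0.024 between vectors in enp1-1 and −0.14 and −0.087 between vectors in 3 strains. The ratio ran between 2.01 and 2.53 (enp1-1, its call lost without each of the 9 libraries in turn, fewer libraries also raising the smallest p possible) and −1.17 and 0.14 (srm1-ts) over both tables, and between vectors −0.083 and 0.38 in control and −0.30 and 0.037 in csl4-ph. Over all features, same-numbered libraries did not deviate together by median (correlation −0.01 for oligo d(T), 0.01 for ribo-depleted and 0.01 for tag libraries), and the numbers were not taken as pairs. Single pairs of tag libraries reached 0.317 with the same number and 0.306 with different numbers. Of the control tags, replicate 3 had the most spacer counts per 100 mature counts under both vectors (10.4 with the empty vector and 10.5 with Pab1GFP). Under the replicate block 6 rows were called in csl4-ph oligo d(T) RNA and 5 in csl4-ph ribo-depleted RNA, ITS1 in dis3-1 was at 0.15 (adjusted p 0.063), RDN37 in rrp6 deletion was at 1.03 (adjusted p 0.0536), and the share in enp1-1 oligo d(T) RNA was at −0.20. The 5S rows in ribo-depleted RNA and ETS2 in 3′ tags had few or no counts, and differences there were not detectable at these counts.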

Other observations

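Features that overlap a row or lie near one gave further values, given as CPM or as log2 fold changes of mutant over control. YLR154C-H, which overlaps the 5S copy RDN5-2, was called higher in oligo d(T) RNA of csl4-ph (3.48) and enp1-1 (3.21). YLR154W-F had 0 counts in control oligo d(T) RNA and was at least 107-fold higher in csl4-ph, 148-fold in enp1-1 and 19.3-fold in srm1-ts. In 3′ tags with the empty vector YLR154W-F was at 3.82 in csl4-ph and 1.27 in enp1-1, while YLR154C-G was at −1.80 and −1.74. The feature 12F-188 was also higher in csl4-ph oligo d(T) RNA, at 1113, 810 and 800 CPM, against 13.04 to 13.55 CPM in control (6.09 ± 0.17). TAR1 in srm1-ts ribo-depleted RNA had 62.4 and 435 CPM, against 7.43 and 12.96 CPM in control (4.63 ± 1.22), and both srm1-ts libraries were high in 25S and 18S as well. RRN3 was higher in oligo d(T) RNA of csl4-ph (1.57), enp1-1 (1.93) and srm1-ts (3.23). The box H/ACA RNA snR10 averaged 269 CPM in csl4-ph and 23.4 CPM in control oligo d(T) RNA (3.52).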
